A study of Homo sapiens with 18 samples.

Results

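The genes described here are the inhibitors of cyclin-dependent kinases (CDKs) and the cyclins and kinase that these inhibitors restrain at the start of the cell cycle. They are 10 genes chosen by name: CDKN1A, CDKN1B and CDKN1C of the CIP/KIP family, CDKN2B, CDKN2C and CDKN2D of the INK4 family, the D cyclins CCND1, CCND2 and CCND3, and the kinase CDK6. A probe set, a small group of probes within 1 exon, was taken for a gene when the platform's annotation gave it that symbol alone. This gave 96 of 287329 probe sets for the 10 genes, out of 16241 genes that had at least 3 such probe sets and were tested. All 10 were tested, with 4 (CDKN2D) to 20 (CDK6) probe sets each.

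The study exposed 3 human leukaemia and lymphoma cell lines for 3 days to 30 nM phorbol 12-myristate 13-acetate (PMA), a drug that activates protein kinase C. Control cells received only the solvent, dimethyl sulfoxide (DMSO), diluted 1000-fold. The groups were HL60 with PMA and with DMSO, THP-1 with PMA and with DMSO, and U937 with PMA and with DMSO, 3 human exon arrays each and 18 in all, every line grown in the same kind of serum-supplemented medium. HL60 was derived from an acute myeloid leukaemia, THP-1 from an acute monocytic leukaemia and U937 from a histiocytic lymphoma. Each is a single established line, and the labels leave unsaid whether the 3 numbered arrays of a group are separate cultures. The p-values therefore cover only the spread among these arrays, which may be technical.

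A D cyclin binds CDK4 or CDK6, and the pair phosphorylates the retinoblastoma protein and its relatives, which frees E2F transcription factors to switch on the genes of DNA replication. INK4 proteins bind CDK4 and CDK6 and keep D cyclins off them, while CIP/KIP proteins bind complete cyclin-CDK complexes and block CDK2 in particular. PMA is widely used on myeloid leukaemia lines to drive them towards macrophage-like cells, a change that goes with an exit from the cell cycle.

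All values are on the deposited log2 scale, and a gene's value is the mean of its probe sets. A difference of 1 on this scale is a doubling. Effects are PMA minus DMSO in log2 units ± SE, each from 3 PMA and 3 DMSO arrays, and means of levels are given ± SD (n = 3). Adjusted p-values are from limma, corrected over all 16241 genes, and a gene was called at an adjusted p under 0.05. Probe sets differ in brightness for reasons other than RNA amount, so levels are compared between arrays and never between genes.

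The median value per array was lowest on U937 PMA 2 (6.18) and highest on U937 DMSO 1 (6.95), with Pearson correlations of 0.931 to 0.978 between arrays of a group. Arrays of a line shared 39 to 116 exactly tied values, against at most 7 between lines, but the U937 arrays numbered 2 shared at most 5 with any other array, and how these sets were normalized is not given in the sources used here. U937 PMA 2 also had only 83228 distinct values where the other 17 arrays had 214471 to 220516. Results in U937 are also given without both arrays numbered 2 where that matters. Of 9 measured myeloid markers, at most 1 had a group mean below 5.17, the 30th percentile of probe-set means. The surface receptor CD33 averaged 8.10 to 8.75 over the 6 groups and the transcription factor SPI1 8.5 to 9.79, but others came near that floor. The granule enzyme MPO averaged 5.05 with PMA and 5.87 with DMSO in THP-1 and 5.37 and 5.17 in U937, and with DMSO in U937 the integrin ITGAM (5.41) and the receptors CSF1R (5.57) and CD14 (5.59) were also low. In each group 6 of 7 T and NK cell markers, 2 or 3 of 4 erythroid markers and 2 or 3 of 7 epithelial and fibroblast markers lay below 5.17, and 0 of 3 B cell markers did.

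With PMA, limma called 5 of the 10 genes higher and 2 lower in HL60, where 12.3% and 10.7% of all genes were called higher and lower (23% in all). In THP-1, 3 were called higher and 1 lower, against 9.38% and 13.2% of all genes (22.6% in all). In U937, 2 were called higher and 4 lower, against 5.5% and 16.5% of all genes (22% in all). The median effect of the 10 genes was 0.61 in HL60, 0.29 in THP-1 and 0.20 in U937, beside 0.13, 0.04 and -0.07 over all genes. CDKN1A and CDKN2B were called higher, and CDKN2C lower, in all 3 lines, though the THP-1 call of CDKN2B was lost under several alternatives. The share of all genes called in the same direction in all 3 lines was not counted. CDKN1C and CDKN2D were called in none.

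**Figure D1:**
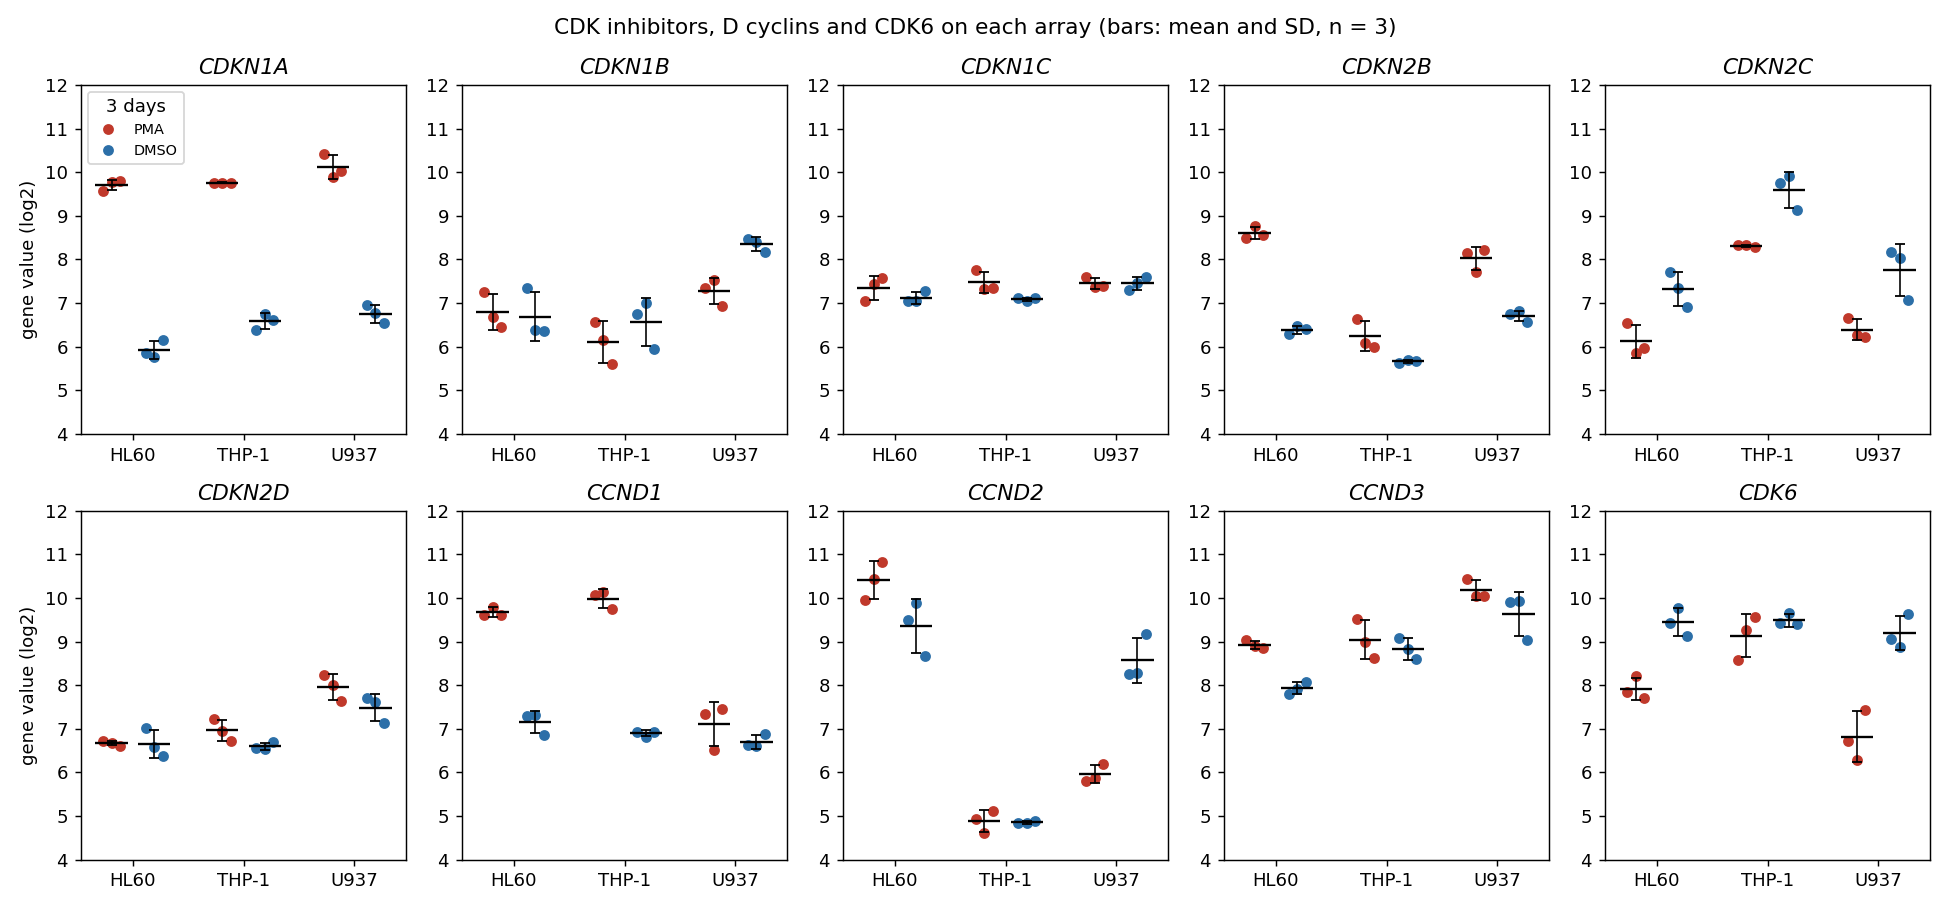
Gene values (log2, y axis) of the 10 genes on each of the 18 arrays, with PMA (red) left of DMSO (blue) in each line; each point is 1 array, and bars give the mean and SD of 3 arrays. CDKN1A lies between 9.57 and 10.43 on the 9 PMA arrays and between 5.76 and 6.95 on the 9 DMSO arrays.

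CDKN1A encodes p21, a CIP/KIP inhibitor of cyclin-CDK complexes and a classical product of growth arrest. It was higher with PMA in every line, and by far more than any other inhibitor. In HL60, CDKN1A stood at 9.57, 9.76 and 9.79 on the PMA arrays, against 5.86, 5.76 and 6.14 on the DMSO arrays. All 3 PMA arrays lay far above all 3 DMSO arrays, and the effect was 3.79 ± 0.18, or 13.8-fold (adjusted p = 8.15e-11). In THP-1 it stood at 9.76, 9.76 and 9.74 with PMA, against 6.38, 6.75 and 6.61 with DMSO. The THP-1 effect was 3.17 ± 0.18, or 9.02-fold (adjusted p = 1.27e-09), again with no overlap. In U937 it stood at 10.43, 9.90 and 10.03 with PMA, against 6.95, 6.76 and 6.55 with DMSO. The U937 effect was 3.36 ± 0.18, or 10.3-fold (adjusted p = 1.67e-09), or 3.48 with both arrays numbered 2 left out (adjusted p = 1.33e-07). Among all 16241 genes CDKN1A ranked number 88 from the highest effect in HL60, number 96 in THP-1 and number 45 in U937. The lines did not pass the test for a difference in this effect: HL60 minus THP-1 was 0.62 (95% interval 0.09 to 1.14, adjusted p = 0.173) and THP-1 minus U937 was -0.19 (95% interval -0.71 to 0.33, adjusted p = 0.861).

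The start region of CDKN1A is shown because it had the largest effect of the 6 inhibitors in every line, beside those of CDKN2B and CDKN2C, the other members called in all 3 lines. Each sequence is the 250 bases before an annotated start, read 5′ to 3′ on the strand of the gene, from RefSeq with the build GRCh38.p14. Capitals mark GC boxes, searched as GGGCGG on both strands, the motif bound by Sp1-family transcription factors.
CDKN1A, chr6:36678464-36678713, plus strand: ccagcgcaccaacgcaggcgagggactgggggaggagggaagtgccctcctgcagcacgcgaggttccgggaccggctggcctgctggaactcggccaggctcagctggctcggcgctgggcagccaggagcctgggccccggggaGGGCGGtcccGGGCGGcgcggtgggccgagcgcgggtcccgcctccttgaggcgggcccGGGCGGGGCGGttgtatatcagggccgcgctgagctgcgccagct
CDKN2B, chr9:22009306-22009555, minus strand: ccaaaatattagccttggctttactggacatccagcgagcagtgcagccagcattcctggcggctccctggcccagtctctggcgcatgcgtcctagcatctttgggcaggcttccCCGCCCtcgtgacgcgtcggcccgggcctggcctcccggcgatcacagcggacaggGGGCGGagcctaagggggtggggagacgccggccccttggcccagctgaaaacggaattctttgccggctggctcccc
CDKN2C, chr1:50960495-50960744, plus strand, the first of 3 annotated starts: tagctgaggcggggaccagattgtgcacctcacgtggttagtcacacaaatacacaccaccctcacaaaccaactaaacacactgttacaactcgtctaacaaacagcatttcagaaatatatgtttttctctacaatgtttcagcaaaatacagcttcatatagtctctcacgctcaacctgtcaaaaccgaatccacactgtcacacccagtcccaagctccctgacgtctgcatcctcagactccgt
The CDKN1A window held 4 GC boxes, of which 2 overlap. At least 1 GC box was found in 42.5% of 34943 RefSeq windows of this length and 4 or more in 7.6%. The CDKN2B window held 2. The CDKN2C window shown held 0, and the windows of its other starts held 5 and 1. Across the 12 windows of 7 matched members, none held the exact letters searched for a TATA box (TATAAA, in 10.8% of all windows), an AP-1 site (TGANTCA, in 6.59%) or an E2F site (TTTCGCGC, in 0.429%, or TTTGGCGC, in 0.547%) on either strand. Other forms of these sites were not searched, so this does not show that the sites are absent. The members without a window are CDKN1C, CCND1 and CCND2. A match in these letters is a description and no evidence of binding.

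The 6 probe sets of CDKN1A did not move by the same amount. Exon-level change was tested with limma's diffSplice, which compares the effect on a probe set with the effect on the remainder of its gene, and called at an adjusted p under 0.05 with a difference of at least 1 log2 unit. It covered 87 member probe sets in each line, and called 9 in HL60, 8 in THP-1 and 8 in U937, beside 2.79%, 1.5% and 1.01% of all 175163 probe sets tested. This test treats the probe sets of a gene as independent measurements, although they come from the same arrays, and its p-values should be read with that in mind.

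Probe set 2905177 of CDKN1A moved least: in HL60 it stood at 8.65, 8.55 and 8.56 with PMA, against 7.88, 8.09 and 8.24 with DMSO. It changed by 0.52 in HL60, 0.77 in THP-1 and 0.63 in U937, each with no overlap of the groups, and less than the rest of the gene in all 3 lines (adjusted p of 5.9e-14, 1.9e-08 and 4.64e-10). Probe set 2905176 changed by 1.35, 1.26 and 1.54 in these lines, also less than the rest (adjusted p of 3.62e-09, 8.44e-06 and 3.99e-05). The other 4 probe sets rose by between 3.07 and 6.63 in every line. The largest change was of probe set 2905193 in HL60, at 10.88, 11.14 and 11.28 with PMA, against 4.08, 4.61 and 4.71 with DMSO. Probe sets 2905193 and 2905194 were called as rising more than the rest in all 3 lines. The call of 2905194 in U937 was lost when each probe-set value was tested after subtraction of its gene mean, known as the splicing index (adjusted p = 0.296). Probe set 2905189 rose more than the rest in HL60 and U937. Positions of probe sets along the genes were not used here.

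CDKN1B encodes p27, the CIP/KIP inhibitor that accumulates in many resting cells, and it did not follow CDKN1A. In U937 it stood at 7.33, 7.53 and 6.94 with PMA, against 8.48, 8.41 and 8.16 with DMSO. All U937 PMA arrays lay below all DMSO arrays, and the effect was -1.08 ± 0.32 (adjusted p = 0.021). That call was lost without both U937 arrays numbered 2 (-1.18, adjusted p = 0.0721) and when arrays were rescaled to a common median (-0.84, adjusted p = 0.0731) or to common quantiles (-0.80, adjusted p = 0.0943). It was also lost without U937 DMSO 1, DMSO 2 or PMA 3 alone (adjusted p of 0.0765, 0.0636 and 0.077), and with the median of the probe sets (adjusted p = 0.0558). In HL60 the values with PMA were 7.26, 6.68 and 6.45, against 7.34, 6.38 and 6.36 with DMSO. The HL60 array numbered 1 was the highest of its group in both conditions, and the effect was 0.10 ± 0.32 (adjusted p = 0.852). In THP-1 CDKN1B averaged 6.10 ± 0.49 with PMA and 6.56 ± 0.55 with DMSO. That effect of -0.46 ± 0.32 was not called (adjusted p = 0.355) until the replicate number was fitted as a block (adjusted p = 0.0383).

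CDKN1C, which encodes p57, was the CIP/KIP member with no call in any line. It averaged 7.35 ± 0.27 with PMA and 7.12 ± 0.14 with DMSO in HL60 (adjusted p = 0.409). In THP-1 it averaged 7.48 ± 0.24 with PMA and 7.09 ± 0.03 with DMSO, without overlap between the groups but with an adjusted p of 0.128. In U937 both means were 7.45, and the 95% interval of the effect was -0.36 to 0.36.

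CDKN2B encodes p15, an INK4 inhibitor of CDK4 and CDK6 known as a target of TGF-beta signalling. It was higher with PMA in all 3 lines, but by amounts that differed between them. In HL60 it stood at 8.5, 8.76 and 8.56 with PMA, against 6.30, 6.47 and 6.40 with DMSO. The groups were well apart, with an effect of 2.21 ± 0.18, or 4.64-fold (adjusted p = 5.25e-08). The U937 values were 8.15, 7.72 and 8.21 with PMA, against 6.74, 6.81 and 6.57 with DMSO. That effect was 1.32 ± 0.18, or 2.50-fold (adjusted p = 4.3e-05), 1.52 without both arrays numbered 2 (adjusted p = 7.57e-05), and 0.67 when the median of the probe sets replaced their mean (adjusted p = 0.0261). In THP-1 it stood at 6.63, 6.08 and 6.0 with PMA, against 5.63, 5.68 and 5.67 with DMSO. The THP-1 groups did not overlap, but the effect was small, 0.58 ± 0.18 (adjusted p = 0.0289), and without THP-1 PMA 1 it was 0.38 (adjusted p = 0.189). That call was also lost without any single THP-1 DMSO array (0.56 to 0.59, adjusted p of 0.0595 to 0.0879) and when THP-1 was fitted alone (adjusted p = 0.0699).

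The effect in HL60 exceeded that in THP-1 by 1.64 ± 0.26 (adjusted p = 0.000476), though with the median of the probe sets the difference was 0.83 (adjusted p = 0.106). It exceeded that in U937 by 0.90 ± 0.26 (adjusted p = 0.0407). That call was lost when arrays were rescaled to a common median (0.61, adjusted p = 0.143) or to common quantiles (0.69, adjusted p = 0.0734). Leaving out both U937 arrays numbered 2 (0.69, adjusted p = 0.111) or taking the median of the probe sets (0.82, adjusted p = 0.112) also removed the call. It was also lost without any single HL60 or THP-1 DMSO array, any single HL60 PMA array, or U937 DMSO 1, DMSO 2 or PMA 2 (0.74 to 0.95, adjusted p of 0.0518 to 0.112), and in a fit of these 2 lines alone (adjusted p = 0.0763). Effects that differed between HL60 and THP-1 were called for 7.78% of all genes, between HL60 and U937 for 7.73%, and between THP-1 and U937 for 4.77%. THP-1 minus U937 was -0.74 (95% interval -1.29 to -0.20, adjusted p = 0.136). It passed at -0.95 once both U937 arrays numbered 2 were left out (adjusted p = 0.0291). It also passed at -0.90 with arrays rescaled to a common median or to common quantiles (adjusted p of 0.0275 and 0.0215).

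In HL60 and U937 a few probe sets of CDKN2B changed far more than the others, though 11 and 10 of its 11 probe sets were higher with PMA. In THP-1 all 11 were higher, by 0.05 to 1.12. Probe set 3201490 stood at 9.94, 9.71 and 9.07 with PMA in HL60, against 5.33, 4.70 and 4.72 with DMSO. In U937 it stood at 9.42, 8.57 and 9.22 with PMA, against 5.88, 6.32 and 4.65 with DMSO. In THP-1 the same probe set stayed dim, at 3.88, 4.16 and 2.77 with PMA and 2.43, 2.69 and 2.69 with DMSO. It changed more than the rest of the gene in HL60 and in U937 by diffSplice, and was not called in THP-1. The neighbours in the numbering 3201489 and 3201494, too dim on average for that test and singled out after their values were seen, behaved alike. Probe set 3201489 averaged 8.15 with PMA and 3.25 with DMSO in HL60, and 6.99 and 3.06 in U937. In THP-1 its averages were 2.36 with PMA and 1.86 with DMSO, and the groups overlapped. At the other end, probe set 3201495 averaged between 10.22 and 10.96 in all 6 groups, overlapped between PMA and DMSO in every line, and was called in HL60 as changing less than the rest.

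CDKN2C encodes p18, another INK4 inhibitor, and it went the opposite way. HL60 gave 6.55, 5.85 and 5.96 with PMA, against 7.71, 7.35 and 6.92 with DMSO. THP-1 gave 8.33, 8.33 and 8.28 with PMA, against 9.76, 9.91 and 9.13 with DMSO. U937 gave 6.67, 6.27 and 6.22 with PMA, against 8.18, 8.03 and 7.07 with DMSO. Every PMA array lay below every DMSO array of its line, although DMSO array 3 was the lowest of its group in each. The effects were -1.21 ± 0.29 (adjusted p = 0.0047), -1.29 ± 0.29 (adjusted p = 0.00329) and -1.37 ± 0.29 (adjusted p = 0.002) in HL60, THP-1 and U937. The lines differed in this effect by at most 0.17, with 95% intervals that all lay between -0.79 and 1.03. All 8 probe sets of CDKN2C were lower with PMA in each line, and none departed from the gene by diffSplice.

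CDKN2D, which encodes the INK4 inhibitor p19, rests on only 4 probe sets and was too thinly covered for diffSplice. It averaged 6.67 ± 0.05 with PMA and 6.66 ± 0.32 with DMSO in HL60 (adjusted p = 0.975). In THP-1 it averaged 6.96 ± 0.24 with PMA and 6.60 ± 0.08 with DMSO, and did not pass the test (adjusted p = 0.24). In U937 it averaged 7.95 ± 0.29 with PMA and 7.49 ± 0.31 with DMSO, an effect of 0.47 ± 0.21 that was not called (adjusted p = 0.131). The U937 effect passed with the replicate number as a block (adjusted p = 0.036) and when arrays were rescaled to a common median (0.71, adjusted p = 0.0333) or to common quantiles (0.73, adjusted p = 0.0305), and without U937 PMA 3 (0.62, adjusted p = 0.0443).

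**Figure D2:**
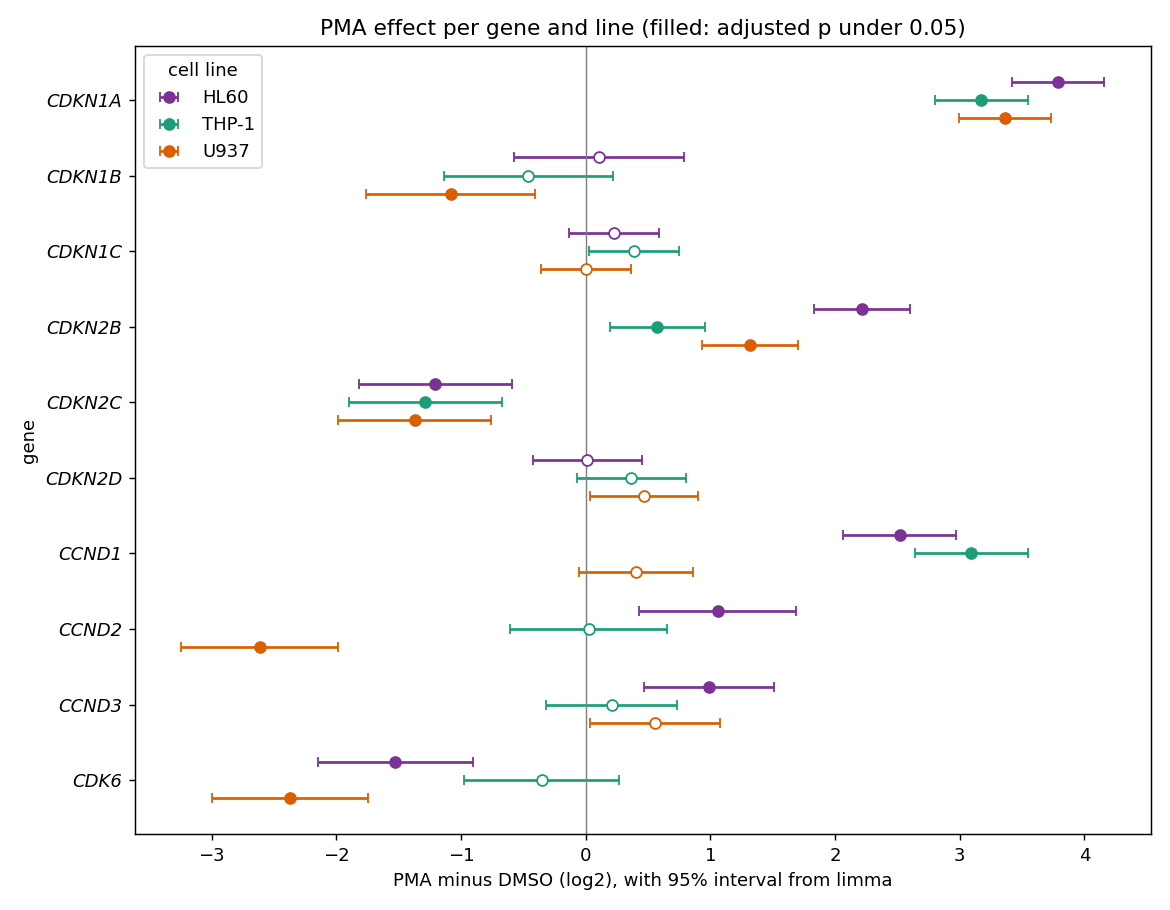
PMA effect (PMA minus DMSO, log2, x axis) on each gene (y axis) in HL60, THP-1 and U937, with 95% intervals from limma; filled points have an adjusted p under 0.05. CDKN1A lies at 3.17 to 3.79 and CDKN2C at -1.37 to -1.21, while CCND2 spans -2.62 (U937) to 1.06 (HL60).

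The D cyclins, the activating partners of CDK4 and CDK6, split by line. CCND1 encodes cyclin D1. In HL60 it stood at 9.62, 9.80 and 9.61 with PMA, against 7.29, 7.32 and 6.86 with DMSO. In THP-1 it stood at 10.07, 10.14 and 9.75 with PMA, against 6.94, 6.81 and 6.93 with DMSO. PMA and DMSO arrays were far apart in both lines, with effects of 2.52 ± 0.22, or 5.73-fold (adjusted p = 8.82e-08), in HL60 and 3.09 ± 0.22, or 8.53-fold (adjusted p = 1.94e-08), in THP-1. The U937 values were 7.33, 6.53 and 7.46 with PMA, against 6.63, 6.60 and 6.88 with DMSO. The U937 groups overlapped through PMA array 2, the lowest of the 6, and the effect was 0.40 ± 0.22 (adjusted p = 0.234). Without both U937 arrays numbered 2 it was 0.64 (adjusted p = 0.0225), and with arrays rescaled to a common median 0.64 (adjusted p = 0.00464). With the median of the probe sets it was 0.27 and not called (adjusted p = 0.558). Of the 12 probe sets, 10 were higher with PMA in U937 and 2 lower, and only 1 was higher without overlap of the groups. The share of all probe sets without overlap was not counted.

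The cyclin D1 effect exceeded that in U937 by 2.12 ± 0.31 in HL60 (adjusted p = 0.000214) and by 2.69 ± 0.31 in THP-1 (adjusted p = 4.33e-05). HL60 minus THP-1 was -0.57 (95% interval -1.22 to 0.07, adjusted p = 0.368), and -0.71 with arrays rescaled to a common median (adjusted p = 0.0404). All 12 probe sets of CCND1 were higher with PMA in HL60 and in THP-1. Probe sets 3338194 and 3338212 changed less than the rest in both lines, by 0.61 and 0.69 in HL60 and by 0.56 and 0.94 in THP-1. In THP-1 probe set 3338211 also changed less (1.36), and probe set 3338214 more (4.62).

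CCND2 encodes cyclin D2, and its effects ran in opposite directions in HL60 and U937. In HL60 it stood at 9.96, 10.44 and 10.83 with PMA, against 9.48, 9.89 and 8.67 with DMSO. The lowest PMA array barely cleared the highest DMSO array, the effect was 1.06 ± 0.30 (adjusted p = 0.0137), and the call was lost without HL60 DMSO 3 (0.72, adjusted p = 0.0908) or without HL60 PMA 3 (0.85, adjusted p = 0.0836), and when HL60 was fitted alone (adjusted p = 0.0675). In U937 it stood at 5.80, 5.87 and 6.19 with PMA, against 8.26, 8.29 and 9.16 with DMSO. There the groups were far apart, with an effect of -2.62 ± 0.30 (adjusted p = 6.3e-06) and rank 44 from the lowest of all genes. The THP-1 values were 4.92, 4.62 and 5.12 with PMA, against 4.84, 4.85 and 4.90 with DMSO. Those values overlapped at a low level, with an effect of 0.03 ± 0.30 (adjusted p = 0.968). The effect in HL60 exceeded that in U937 by 3.68 ± 0.42 (adjusted p = 1.97e-05), and the effect in THP-1 exceeded it by 2.64 ± 0.42 (adjusted p = 0.000854).

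Of the 10 probe sets of CCND2, 9 fell in U937 with no overlap of the groups, with effects of -4.44 to -1.15. They share the same arrays, and the share of all probe sets without overlap was not counted. Probe set 3401715 did not follow: it stood at 11.80, 11.65 and 12.03 with PMA, against 11.14, 11.40 and 12.02 with DMSO. It was called against the rest of the gene in U937, and averaged between 11.05 and 11.83 in all 6 groups, THP-1 included. The other 9 probe sets averaged 1.92 to 5.40 with PMA and 2.75 to 5.18 with DMSO in THP-1. Probe set 3401738 fell most in U937 (-4.44), a call against the rest of the gene that was lost with the splicing index (adjusted p = 0.108).

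CCND3 encodes cyclin D3, the D cyclin prominent in blood cells. In HL60 it stood at 9.03, 8.89 and 8.84 with PMA, against 7.81, 7.92 and 8.07 with DMSO. The arrays were clearly separated, with an effect of 0.99 ± 0.25, or 1.98-fold (adjusted p = 0.00643). In THP-1 it averaged 9.04 ± 0.45 with PMA and 8.83 ± 0.25 with DMSO, an effect of 0.21 ± 0.25 that was not called (adjusted p = 0.612). In U937 it averaged 10.18 ± 0.23 with PMA and 9.63 ± 0.51 with DMSO, without overlap and with an effect of 0.55 ± 0.25 (adjusted p = 0.137). The U937 effect passed with the replicate block (adjusted p = 0.0249) and when arrays were rescaled to a common median (0.79, adjusted p = 0.0301) or to common quantiles (0.80, adjusted p = 0.0228). The 3 lines did not differ in this effect by the test, with HL60 minus THP-1 at 0.78 (95% interval 0.04 to 1.52, adjusted p = 0.244, and 0.0488 with the block).

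CDK6, the kinase partner of the D cyclins that is prominent in blood cells, was lower with PMA in HL60 and U937. HL60 gave 7.84, 8.20 and 7.70 with PMA, against 9.43, 9.76 and 9.12 with DMSO. U937 gave 6.73, 6.28 and 7.43 with PMA, against 9.06, 8.88 and 9.64 with DMSO. Neither line had overlapping groups, and the effects were -1.53 ± 0.30 (adjusted p = 0.000786) in HL60 and -2.38 ± 0.30 (adjusted p = 1.6e-05) in U937. THP-1 gave 8.58, 9.27 and 9.55 with PMA, against 9.42, 9.66 and 9.39 with DMSO, which overlapped (-0.36 ± 0.30, adjusted p = 0.448). All 20 probe sets were lower with PMA in HL60 and in U937, 18 and 19 of them with no overlap of the groups. These probe sets share the same arrays, so their agreement is not independent support. The share of all probe sets without overlap was not counted.

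The CDK6 effect in THP-1 exceeded that in U937 by 2.02 ± 0.42 (adjusted p = 0.0068). HL60 minus THP-1 was -1.17 (95% interval -2.06 to -0.29, adjusted p = 0.111), and passed with the replicate block (adjusted p = 0.00538), with arrays rescaled to a common median (-1.31, adjusted p = 0.0165) and with common quantiles (-1.30, adjusted p = 0.0198). HL60 minus U937 was 0.85 (95% interval -0.03 to 1.73, adjusted p = 0.304, and 0.0323 with the block). For CDKN1B the same difference was 1.19 (95% interval 0.23 to 2.15, adjusted p = 0.145, and 0.00246 with the block).

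**Figure D3:**
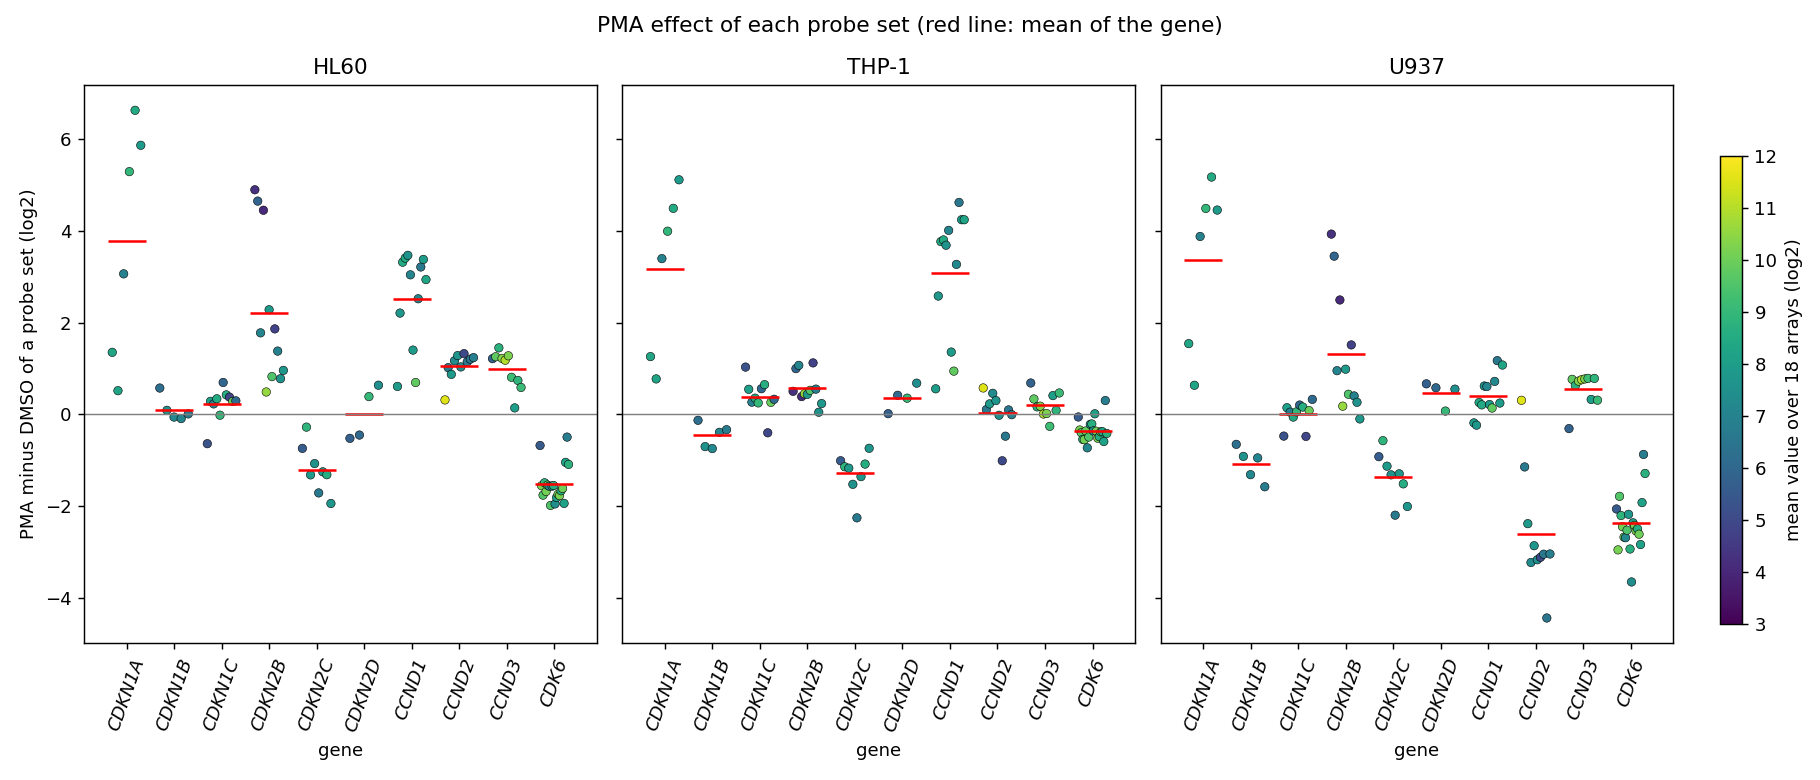
PMA effect (log2, y axis) of each of the 96 probe sets, by gene (x axis) and line (panels), coloured by mean value over the 18 arrays; red lines are gene means. Probe sets of CDK6 lie below 0 in HL60 and U937, while those of CDKN1A spread between 0.52 and 6.63.

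The PMA and DMSO arrays of a line did not overlap for 5 genes above and 2 below in HL60, against 29.7% and 16.4% of all genes (46.1% in all). In THP-1 there were 5 above and 1 below, against 23.2% and 19.8% of all genes (43% in all). In U937 there were 3 above and 4 below, against 5.86% and 19.5% of all genes (25.4% in all). Rescaling arrays to a common median moved the median effect of all genes in U937 by 0.24, and to common quantiles by 0.19. Of all calls in U937, 25% were higher as deposited, 50.3% after the first rescaling and 48.3% after the second. Among the 10 genes, both rescalings gave 5 higher and 3 lower in U937, against 2 and 4 as deposited. Of all 16241 genes, 894 were called higher in U937 as deposited, 2346 after the first rescaling and 2150 after the second. Genes called lower there numbered 2677, 2315 and 2303. The rise in members called higher therefore went with a rise over all genes.

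With DMSO for 3 days, and so without PMA, the lines differed in several of these genes. Tied values were mostly shared within lines, and if the lines were normalized apart, these differences carry any offset between them. HL60 against THP-1 had 5 of the 10 genes called, beside 16.6% of all genes, HL60 against U937 had 4, beside 22.9%, and THP-1 against U937 had 6, beside 26.2%. The widest spread was of CCND2, which averaged 9.35 ± 0.62 in HL60, 4.86 ± 0.03 in THP-1 and 8.57 ± 0.52 in U937. HL60 exceeded THP-1 by 4.49 (adjusted p = 8.14e-09) and THP-1 minus U937 was -3.71 (adjusted p = 4.84e-08), while HL60 and U937 did not pass the test (0.78, adjusted p = 0.0726). CDKN2C ran the other way, at 7.33 ± 0.39 in HL60, 9.60 ± 0.41 in THP-1 and 7.76 ± 0.60 in U937. HL60 minus THP-1 was -2.27 (adjusted p = 1.67e-05) and THP-1 minus U937 was 1.84 (adjusted p = 0.000116).

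CCND3 was ordered HL60, THP-1, U937 from low to high with DMSO, at 7.93 ± 0.13, 8.83 ± 0.25 and 9.63 ± 0.51. HL60 minus U937 was -1.70 (adjusted p = 6.87e-05) and HL60 minus THP-1 was -0.90 (adjusted p = 0.017), while THP-1 minus U937 (-0.80, adjusted p = 0.0247) was lost when arrays were rescaled to a common median (-0.56, adjusted p = 0.134). The HL60 and THP-1 difference was also lost without HL60 DMSO 1, HL60 DMSO 2 or THP-1 DMSO 1 (adjusted p of 0.0541 to 0.0928). That of THP-1 and U937 was lost without THP-1 DMSO 2 or 3 or U937 DMSO 1 or 2 (adjusted p of 0.0609 to 0.12). It was also lost without both U937 arrays numbered 2 (adjusted p = 0.0713), with common quantiles (0.146) and in a fit of these 2 lines alone (0.061). With the median of the probe sets both were lost (adjusted p of 0.0579 and 0.0583). CCND3 probe set 2953867 varied widely with DMSO, at 7.02, 3.22 and 1.15 in HL60 and 7.06, 7.41 and 1.76 in THP-1. CDKN1B was highest in U937, with HL60 minus U937 at -1.66 (adjusted p = 0.000969) and THP-1 minus U937 at -1.79 (adjusted p = 0.000423). CDKN2B was lowest in THP-1, with HL60 minus THP-1 at 0.73 (adjusted p = 0.00874) and THP-1 minus U937 at -1.05 (adjusted p = 0.000296). CDKN1A was lowest in HL60, by -0.66 against THP-1 (adjusted p = 0.0134, and -1.47 with the median of its probe sets) and -0.83 against U937 (adjusted p = 0.00197, and -0.51 with arrays rescaled to a common median). The difference from THP-1 was lost without HL60 DMSO 1 or 2 or THP-1 DMSO 2 (adjusted p of 0.0533 to 0.0769). CDKN2D was highest in U937 by calls that rescaling removed (adjusted p of 0.136 against HL60 and 0.0506 against THP-1 with a common median). For CDKN1C, CCND1 and CDK6 no pair of lines passed the test with DMSO.

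The rest of the pathway was read from lists chosen with earlier results of these data known. Genes that act with the members fell in large numbers. Of 13 measured other cyclins, CDKs and CDC25 phosphatases, 0 were higher and 10, 11 and 11 were lower in HL60, THP-1 and U937, with median effects of -1.54, -1.57 and -1.54. Without both U937 arrays numbered 2, U937 had 7 lower, and without THP-1 DMSO 1 or DMSO 2, THP-1 had 6. Over all 16241 genes, those called lower in U937 then numbered 1654, against 2677 with all arrays. In THP-1 they numbered 1583 and 1372, against 2143. Cyclin A2 (CCNA2), the partner of CDK2 in S phase, fell, with effects of -3.43, -2.14 and -2.28, as did cyclin B1 (CCNB1), which drives mitosis, with -2.57, -2.03 and -1.88. Cyclin E2 (CCNE2) fell with effects of -1.99, -1.84 and -2.40, and the phosphatase CDC25A, which activates CDK2, with -2.85, -1.57 and -2.34.

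Among 14 measured E2F targets of S phase, none was higher and 14, 13 and 13 were lower, with medians of -2.41, -1.37 and -2.09. The replication licensing factor CDC6 fell with effects of -2.77, -1.82 and -2.66. The helicase subunits MCM4 (-3.08, -1.39 and -2.17) and MCM6 (-3.35, -1.57 and -2.21) and the thymidylate synthase TYMS (-3.11, -1.20 and -1.77) fell likewise. Of 13 pocket proteins and E2F factors, 1 was higher and 6 lower in HL60, 0 and 4 in THP-1, and 0 and 8 in U937, with medians of -0.50, -0.45 and -0.76. With the replicate block THP-1 had 8 lower, beside 20.7% of all genes (13.2% without the block). The pocket protein RBL1 fell with effects of -2.72, -1.80 and -1.82. E2F8, a repressor of the family, had -2.86, -1.91 and -2.83, and the E2F partner TFDP1 had -1.74, -1.24 and -1.26. E2F5 fell in U937 (-2.55), with effects of 0.16 in HL60 and -0.74 in THP-1 that were not called (adjusted p of 0.762 and 0.0961, the second 0.0386 with the block). In THP-1 E2F5 also passed once array DMSO 3 was dropped (-1.24, adjusted p = 0.000342) or arrays were rescaled to common quantiles (-0.68, adjusted p = 0.0495). RB1, which encodes the retinoblastoma protein, was the 1 called higher, in HL60 (0.93 ± 0.22, adjusted p = 0.00431).

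The ubiquitin ligase parts that turn over CDK inhibitors and cyclins had 0 higher in any line and 3, 5 and 5 of 12 lower, with medians of -0.40, -0.70 and -0.69. With the replicate block, 5 were lower in HL60 and 9 in U937, where 16% and 25.5% of all genes were then called lower. Without the block these shares were 10.7% and 16.5%. SKP2, which marks p27 for degradation, fell with effects of -2.13, -1.86 and -2.12, and DTL, which marks p21 during S phase, with -4.09, -1.79 and -3.05. CDC20, which activates the anaphase ligase, fell in THP-1 (-1.99) and U937 (-1.77), and its effect in HL60 was 0.07 (adjusted p = 0.836). CKS1B, the helper of SKP2, varied widely between numbered arrays, and its effects of -1.14, -1.05 and -1.65 (SE 0.94) passed with the block (adjusted p of 9.77e-05, 0.000242 and 5.17e-06) and, in U937, when that line was fitted alone (adjusted p = 1.59e-05).

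**Figure D4:**
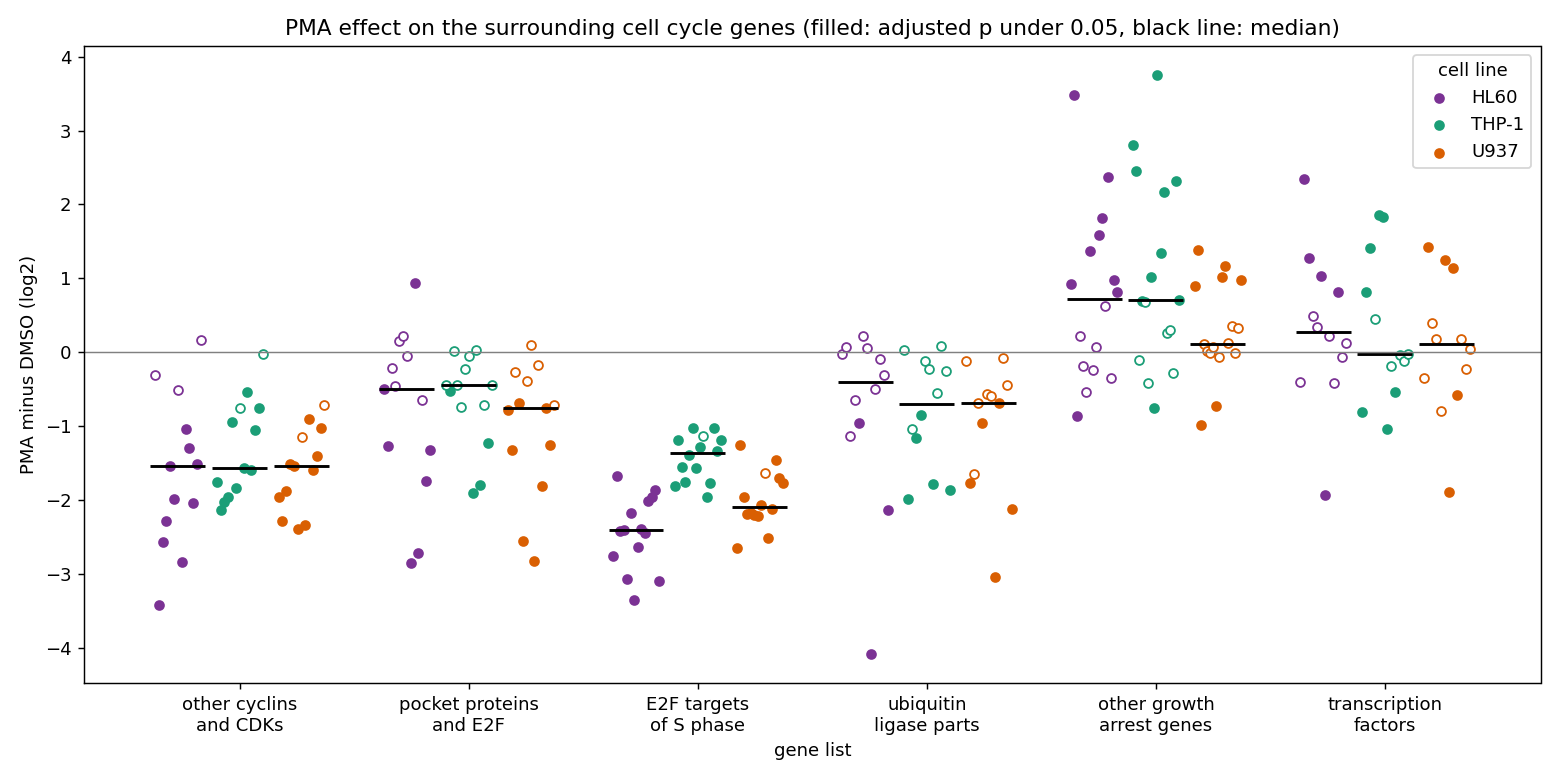
PMA effect (log2, y axis) on the genes of 6 lists (x axis) in HL60, THP-1 and U937; each point is 1 gene, filled at an adjusted p under 0.05, and black lines are list medians. E2F targets lie at medians of -2.41, -1.37 and -2.09.

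Other growth arrest genes were mixed: of 16, 8 were higher and 1 lower in HL60, 9 and 1 in THP-1, and 5 and 2 in U937, with medians of 0.72, 0.70 and 0.11. The antiproliferative genes BTG1 and BTG2 rose in all 3 lines, BTG1 by 0.93, 2.81 and 0.89 and BTG2 by 3.48, 2.45 and 1.38. Their relative TOB1 rose in HL60 (2.37), with effects of 0.30 in THP-1 and 0.35 in U937 (adjusted p of 0.351 and 0.297). Both passed with arrays rescaled to common quantiles (0.40 and 0.57, adjusted p of 0.0339 and 0.00465) or a common median (0.38 and 0.59, adjusted p of 0.0382 and 0.00335), and the U937 effect was 0.57 without U937 PMA 2 (adjusted p = 0.0296). The kinase PLK2 rose in THP-1 (3.75), and its effects in HL60 (0.07) and U937 (-0.07) changed sign when arrays were rescaled to common quantiles (-0.0133 and 0.0714).

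Transcription factors known to act on CDK inhibitor promoters had 4 of 12 higher and 1 lower in HL60, 4 and 3 in THP-1, and 3 and 2 in U937, with medians of 0.27, -0.03 and 0.11. With the replicate block, HL60 had 5 higher and 3 lower, beside 18.4% and 16% of all genes. KLF6, a known activator of CDKN1A, rose by 1.03, 1.82 and 1.25, and CEBPB, a factor of macrophage differentiation, by 2.34, 0.82 and 1.43. The THP-1 call of CEBPB was lost with the median of its probe sets (0.54, adjusted p = 0.1). KLF4 rose in THP-1 (1.85), with effects of 0.34 in HL60 and -0.80 in U937 that were not called (adjusted p of 0.568 and 0.137, the second 0.0223 with the block, and 0.0303 at -1.17 without U937 DMSO 3). MYC, a repressor of CDKN1A and CDKN2B, fell with effects of -1.93 in HL60, -1.05 in THP-1 (adjusted p = 0.0226) and -1.89 in U937. The THP-1 call was lost without any 1 of 4 THP-1 arrays (DMSO 1, DMSO 2, PMA 1 or PMA 3, adjusted p of 0.0522 to 0.122), with the median of the probe sets (-1.47, adjusted p = 0.198) and when THP-1 was fitted alone (adjusted p = 0.0835).

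Over the 18 arrays, the gene values most like those of CDKN1A were those of TM4SF19 (Pearson r = 0.988), CD52 (0.983), SPOCD1 (0.977) and MAML2 (0.976). For CDKN2C they were SLAIN1 (0.971), DCAF10 (0.969), AZU1 (0.962) and CTPS1 (0.959). These 18 points share lines, treatments and array sets, and such a likeness is a description. Between the members, CDKN2B and CDKN2C ran most strongly opposite over the arrays (r = -0.877), and CDKN2D and CCND3 most alike (r = 0.844).

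In bulk RNA, fewer cells with a transcript and less of it per cell cannot be told apart for any of these genes. Of the markers of other cell types, none of 7 T and NK cell, 4 erythroid, or 7 epithelial and fibroblast markers was called in any line. Of 3 measured B cell markers, CD79A rose in HL60 (1.00 ± 0.26, adjusted p = 0.00716) and PAX5 fell in U937 (-0.96 ± 0.20, adjusted p = 0.00143). The mean of the 3 was 5.78 to 6.07 on PMA arrays and 5.32 to 5.46 on DMSO arrays in HL60, and 5.20 to 6.0 and 6.04 to 6.26 in U937. Their part in the results was not tested.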

How the data were processed

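RNA of HL60, THP-1 and U937 cells with PMA or DMSO was measured on human exon arrays, 3 per group. The authors deposited exon-level probe-set values on the log2 scale, made with Affymetrix Expression Console per the submitters' processing notes. Its version, the normalization and the genome build were not given in the sources used here. Values were used as deposited. The number of arrays sets the precision.

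The platform's annotation gave 1 symbol to 261273 of 287329 probe sets, several to 9155 and none to 16901. Of 16941 symbols, 14546 were current in RefSeq, 2300 were updated and 95 kept. Probe sets of a gene were averaged, for genes with at least 3 of them. Effects were fitted with limma 3.58.1 in R 4.3.3 (data.table, version 1.17.8) as 6 group means (12 residual degrees of freedom, 17.06 in total after moderation), with Benjamini-Hochberg adjustment over 16241 genes. Probe sets were tested with diffSplice where their mean exceeded the 30th percentile (5.17), in genes with at least 5. Both steps were run on simulated data with independent noise for each gene or probe set. Deviations shared across an array were not simulated, so that run cannot show how the calls fare under them. Figures were drawn with matplotlib 3.10.9 and pandas 2.3.3 in Python 3.11.15.

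Members and lists were chosen with earlier results of these data known. Named were all members, at most 4 genes of each list, by size of effect in any line, the 4 genes most correlated with CDKN1A and with CDKN2C, and member probe sets called in any line. RB1, as a single call, and 2 dim CDKN2B probe sets were named after their values were seen. Some genes of the lists were not analysed here. Same-numbered PMA and DMSO arrays deviated together from their group means in all 9 pairs (r = 0.285 to 0.79). Within lines, arrays of different numbers ranged from r = -0.654 to 0.437, so the 2 ranges overlap. Each PMA array nonetheless had its highest r with the DMSO array of its own number. Seen from the DMSO arrays, THP-1 DMSO 1 (0.437) and U937 DMSO 2 (0.329) had their highest r with a PMA array of another number. The labels do not say whether the numbers pair the arrays, and a fit with the numbers as a block was an alternative. Others were other scalings, other summaries of probe sets, fits per line, and fits without single arrays.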

Additional observations from a re-analysis of the deposited data

Results flagged for a closer look

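Differences between lines in the PMA effect on a gene passed the test of the difference itself (limma, adjusted over all genes, 3 arrays per group) in 7 cases. For CDKN2B, HL60 exceeded THP-1 by 1.64 log2 units (adjusted p = 0.000476) and U937 by 0.90 (adjusted p = 0.0407), the second being the weakest of the 7. For CCND1, HL60 exceeded U937 by 2.12 (adjusted p = 0.000214) and THP-1 exceeded U937 by 2.69 (adjusted p = 4.33e-05). For CCND2, HL60 exceeded U937 by 3.68 (adjusted p = 1.97e-05) and THP-1 exceeded U937 by 2.64 (adjusted p = 0.000854). For CDK6, THP-1 exceeded U937 by 2.02 (adjusted p = 0.0068). U937 is one side of 6 of these, and its PMA 2 array stood apart from the others. Without both U937 arrays numbered 2 the differences were 1.88 and 2.45 for CCND1, 3.78 and 2.74 for CCND2 and 1.91 for CDK6, all still called, and 0.69 for CDKN2B (adjusted p = 0.111).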

How the results depend on the processing

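Of 780 comparisons of a member's PMA effect with an alternative setting, 741 kept direction and side of the threshold, 15 lost the call, 12 gained it and 12 changed sign, all 12 between values that were not called. Many of these comparisons could not change direction, so the 741 overstate how far the effects were put to a test. The block, fits per line and fits without an array of another line leave the effect itself as it was. They alter only its SE and p-value. Calls of CDKN1A, CDKN2C, and CDKN2B outside THP-1 held under every setting run. With the replicate number as a block, 4 members were higher in U937 and 2 lower in THP-1, beside 7.76% and 20.7% of all genes. Effects then differed for 3 members between HL60 and THP-1 and 5 between HL60 and U937, and 13 member probe sets were called in U937. For these differences and probe sets the share over the whole series was not computed with the block. The block changed no other member call than those given beside the results. No paired fit exists for the DMSO levels, which lie in different lines. Quantile normalization and centring on the median each gave 5 members higher in U937, beside 2150 and 2346 of all 16241 genes. They gave 2 and 3 members that differed between HL60 and THP-1. Leaving out 1 array at a time gave 5 to 8 member probe sets in U937 (5 without U937 PMA 2). It gave 3 to 5 DMSO differences between HL60 and THP-1 (3 without HL60 DMSO 1 or 2), and 1 to 2 differing effects between these lines (2 without THP-1 PMA 1). The shares over all genes or probe sets were not computed for these counts, nor for the differences after the 2 rescalings. Such member counts cannot be set against the whole series. Signs changed for CDKN2D in HL60 (quantile -0.0245, centred -0.0362), CDC20 in HL60 (median of probe sets -0.0815), E2F5 in HL60 (probe sets above the 30th percentile -0.0313), PLK2 in HL60 (quantile -0.0133, median of probe sets -0.248) and PLK2 in U937 (quantile 0.0714, centred 0.17, probe sets above the 30th percentile 0.0166, and 0.0403 without both U937 arrays numbered 2). Without single arrays, effects ran from -0.13 to 0.19 for CDKN2D in HL60, -0.13 to 0.43 for CDKN1B in HL60, -0.0908 to 0.16 for CCND2 in THP-1, -0.0251 to 0.42 for CCND3 in THP-1, -0.076 to 0.0684 for CDKN1C in U937, -0.0461 to 0.69 for KLF4 in HL60 and -0.22 to 0.16 for PLK2 in U937. The cause was not tested. Signal limits the dim probe sets, whose changes are approximate.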
